A study of Mus musculus with 5 samples.

Results

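Among cells sorted from uninjured skeletal muscle of mice, 265 of 4632 retained cells (5.72%, exact 95% interval 5.07 to 6.43%) carried a set of secreted and matrix genes known from tendon and cartilage. Each had at least 3 of Chad, Wif1, Cilp2, Angptl7, Col11a2 and Comp with 1 or more UMIs (unique molecular identifiers, each standing for 1 captured transcript). Each also had at least as many of these 6 genes as of a second set, Chodl, Col22a1, Ptx4, Thbs4, Tnmd and Kera. They are called Chad set cells here. The other 4367 retained cells of the same library served as the main comparison. The 160 cells with at least 3 genes of the second set and more of these than of the first set, called Chodl set cells, were the group most like them.

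The cells came from adult Prx1Cre;mTmG mice on a C57Bl/6 background, named Prx1Cre;RosamTmG and C57BL6/J in the study's paper. Prx1Cre recombines in limb bud mesenchyme and its descendants, and the mTmG reporter then switches from a red to a green fluorescent membrane protein, so the cells sorted as GFP+ carry the mark of that lineage. Muscles around the tibia were dissected free of skin, fascia, fat and tendons before enzymatic digestion, so a tendon-type cell in this library came from what remained with the muscle. The study sequenced 5 such libraries, each from the pooled cells of 2 mice, with 10x Genomics 3′ chemistry, at day 0 without injury, at days 3 and 5 after tibial fracture and at days 3 and 5 after polytrauma (fracture with mechanical injury of the adjacent muscle). The description below rests on the day 0 library. The labels of the library labelled day 5 after fracture and of that labelled day 3 after polytrauma are at odds with the cell numbers in the study's source data, so no direction is drawn from either.

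In all, 5653 barcodes and 18247307 UMIs made up the day 0 library, and its retained cells had 3640 UMIs at the median. Chad set cells had a median of 5060 UMIs (lowest 1072, highest 14478), against 3585 in the other cells and 4128.5 in the Chodl set cells. Their median share of mitochondrial UMIs was 3.16%, against 3.13% in the other cells. Because each condition has 1 library, no p-value is given. Levels are UMIs summed over a group of cells and scaled to a total of 1000000 (CPM). The 95% intervals of levels, ratios and shares are exact Poisson or binomial intervals that cover counting error only, not the spread between mice. A further group was 261 mural cells, with at least 3 of 6 pericyte and smooth muscle genes and a median of 4441 UMIs. Their share of cells with a UMI is given as a reference from a cell type that should lack tendon genes. Free RNA was not measured, so whether it gave these UMIs was not tested.

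Tendon is a dense connective tissue whose cells lie between parallel fibrils of type I collagen. Tenocytes are known to depend on the transcription factors scleraxis (Scx) and mohawk (Mkx), and to make the membrane glycoprotein tenomodulin (Tnmd), fibril-binding proteoglycans such as fibromodulin (Fmod) and pentameric glycoproteins such as Comp and Thbs4. Where tendon is compressed or joins bone it also makes genes shared with cartilage, and where it joins muscle it makes collagen XXII.

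The 6 genes that chose the cells are described first, with no test, since the rule fixed their direction. Chad (chr11:94565047-94569127, plus strand, GRCm38) encodes chondroadherin, a leucine-rich protein that binds collagen and cell-surface integrin. Its level was 3731 CPM (3632 to 3832) in Chad set cells and 52.1 CPM in the other cells. Per cell it ran from 0 to 160 UMIs with a median of 13, and the median of the other cells was 0. It was the most widely detected of the 6 genes, in 97.4% of Chad set cells, 6.69% of the other cells and 6.51% of mural cells. With each cell thinned to 1000 UMIs these shares were 83.4%, 2.34% and 1.92%. The shares of the other cells and the mural cells were thus close, but not the amounts: no mural cell held more than 2 Chad UMIs, whereas 25 of the other cells held 10 or more, with 60 at the highest. Of the Chodl set cells, which belong to the other cells, 29.4% had a Chad UMI, at 510 CPM. Comp (chr8:70373558-70382066, plus strand), cartilage oligomeric matrix protein, was at 1848 CPM (1779 to 1920) against 78.6, with a median of 8 UMIs per cell (0 to 49). It was detected in 93.2% of Chad set cells and in 2.30% of mural cells.

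Wif1 (chr10:121033960-121100650, plus strand) encodes a secreted protein that binds Wnt ligands and blocks them. It had the widest contrast of the 6 genes, 1050 CPM (998 to 1105) against 4.63, a ratio of 227 (180 to 291). No cell outside the Chad set held more than 6 Wif1 UMIs, whereas Chad set cells reached 46. Angptl7 (chr4:148495183-148500460, minus strand), a secreted angiopoietin-like protein, was at 1180 CPM (1125 to 1238) against 41.3. Its UMIs were uneven, with a median of 1 and a highest value of 148 per cell. Cilp2 (chr8:69880369-69887687, minus strand), a relative of cartilage intermediate layer protein, was at 720 CPM (677 to 766) against 11.6. Col11a2 (chr17:34039437-34066685, plus strand), a chain of the fibril-nucleating collagen XI of cartilage, was at 242 CPM (217 to 269) against 3.88. It was found in 46.4% of Chad set cells, the lowest share of the 6 genes.

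Detection of all 6 genes was the most frequent pattern, in 80 of the 265 cells. The next were Chad with Cilp2 and Comp alone and all but Col11a2, in 35 cells each. By number of genes, 65 cells had 3, 62 had 4, 58 had 5 and 80 had 6. Each gene was also counted in cells that met the rule on the other 5 genes, as a description only, since the 6 genes were chosen together with earlier results of these data known. Chad was found in 96.3% of such cells (92.6 to 98.5%), Comp in 90.7% (85.7 to 94.4%) and Cilp2 in 83.0% (77.2 to 87.9%). Wif1 was found in 67.9%, Angptl7 in 59.3% and Col11a2 in 43.9%, against 1.51 to 9.55% of the remaining cells for the 6 genes. After thinning to 1000 UMIs the shares ran from 13.4% (Col11a2) to 82.1% (Chad), against 0.594 to 5.25% of the remaining cells.

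**Figure D1:**
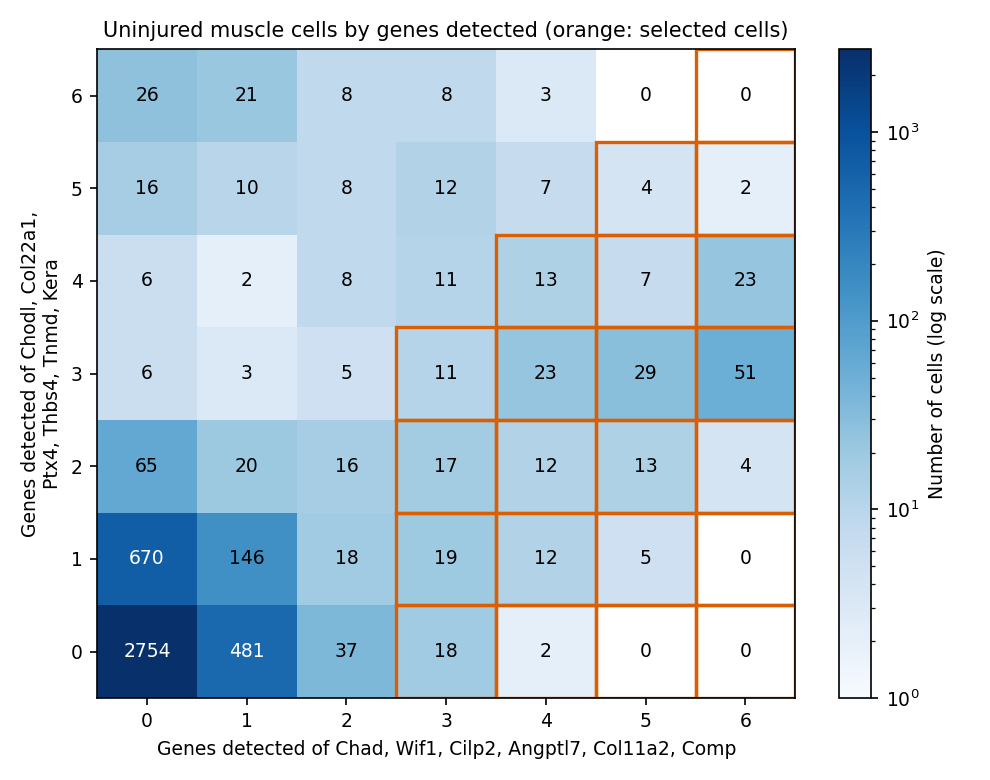
Number of retained cells of the uninjured library by how many of the 6 genes of the Chad set (horizontal axis) and of the Chodl set (vertical axis) had at least 1 UMI, with the 265 selected cells outlined in orange. Most selected cells also held genes of the second set, and 51 cells had all 6 genes of the first set with 3 of the second.

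The second set was not absent from the selected cells. Only 20 of the 265 had none of its genes, and 114 had 3. Tnmd was found in 85.3% of them, Thbs4 in 83.4% and Kera in 54.3%. In mural cells these shares were 24.9%, 3.45% and 4.21%, so a single Tnmd UMI says little of a cell. Over all retained day 0 cells Tnmd and Thbs4 were at 455 and 459 CPM. In mural cells they were at 78.4 and 9.27 CPM, so mural cells do not give a common background level. The source of the mural Tnmd UMIs was not tested. Tnmd was at 2722 CPM in Chad set cells, 251 in the other cells and 4538 in Chodl set cells. Thbs4, thrombospondin 4, followed the same order with 2437, 281 and 5339 CPM. Kera, the small proteoglycan keratocan, was at 1273, 99.5 and 2062 CPM. The remaining genes of the second set were low in Chad set cells. Chodl (chondrolectin) was at 49.3 CPM in Chad set cells and 1757 in Chodl set cells, Col22a1 (collagen XXII of the muscle-tendon junction) at 17.4 and 520, and Ptx4 (a pentraxin) at 65.3 and 648. The rule kept out 41 cells with 3 or more genes of the first set that had more of the second.

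At the edge of the rule, the 65 cells with exactly 3 genes of the first set had Chad at 3661 CPM, Fmod at 2841 and Tnmd at 616. The 71 cells just outside, with 2 genes of the first set and no more than 2 of the second, had Chad at 716 CPM, Fmod at 873 and Tnmd at 333. Pi16, a gene of interstitial fibroblast progenitors, was at 186 CPM just inside and 706 just outside.

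The label of these cells as tendon-like was checked on genes outside the rule. Clustering of the day 0 library without the 12 genes placed 202 of the 265 cells (76.2%, 70.6 to 81.2%) in a cluster of 385 cells led by Scx, Fmod, Insc, Mkx, Gas2, Spock3, Zfp185, Tnc, Egfl6 and Col11a1. Scx, Fmod, Mkx and Tnc, which belong to the tendon list, were thus among the genes that led the cluster with most of them. The same cluster held 150 of the 160 Chodl set cells, so its leading genes describe both groups together. Mkx and Tnc were at 115 and 412 CPM in Chodl set cells, against 103 and 358 in Chad set cells. Fmod was at 5484 against 11706 CPM. At a finer clustering (resolution 1 in place of 0.5) the main cluster held 195 Chad set cells and 27 Chodl set cells, so whether these groups were separated depended on the resolution. A separate cluster of 67 cells held another 46 Chad set cells (17.4%) and 2 Chodl set cells. Over all its cells, 21 of which failed the rule, it was led by Bglap2, Bglap, Ostn, Dlx5, Col8a1, Dkk3, Col8a2, Crabp1, Edil3 and Crabp2. None of these genes defines a tenocyte. By this clustering the label was not borne out for these 46 cells, and they are called the Bglap2-led cells. With 10 principal components in place of 20, however, all 46 fell in the main cluster, then of 450 cells. At the setting of 20, the last 17 cells were spread over other clusters, with Myh11 at 1072 CPM and Pi16 at 821 CPM. Among the 15 nearest neighbours of each Chad set cell a median of 12 were Chad set cells, and they made up 75.3% of its neighbours. The share was 16.1% for Chodl set cells, with a median of 0, and 1.26% for all other cells.

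The clustering had not used the genes of the rule, but these genes chose the cells, so their levels in both groups are a description only. A cell without Wif1, Angptl7 and Col11a2 could meet the rule only with Chad, Cilp2 and Comp. Chad was high in both groups, at 3825 CPM (3706 to 3947) in the 202 cells and 4455 (4224 to 4694) in the Bglap2-led cells, and Comp was at 2054 and 1421 CPM. Wif1 was at 1407 CPM (1334 to 1481) in the 202 cells and 147 (107 to 196) in the Bglap2-led cells. Angptl7 was at 1630 and 60.5 CPM, and Col11a2 at 333 and 3.19 CPM, the latter from 1 UMI.

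Tenocyte genes of the second set, which the rule also used, divided in the same way. Tnmd was at 3669 CPM in the 202 cells and 373 in the Bglap2-led cells, and Thbs4 at 3261 and 478. Kera had 1813 UMIs in the 202 cells (1788 CPM) and none in the Bglap2-led cells, whose 313835 UMIs put a limit of 3 UMIs at 9.56 CPM. Of the genes of the rule, Chad and Comp were found in all 46 Bglap2-led cells and Cilp2 in 93.5%, whereas Wif1 was found in 32.6%, Angptl7 in 15.2% and Col11a2 in 2.17%. Exactly 3 genes of the first set were found in 30 of the 46 and all 6 in none, against 26 and 78 of the 202. They were not shallow cells, with a median of 6352.5 UMIs against 4405.5.

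**Figure D2:**
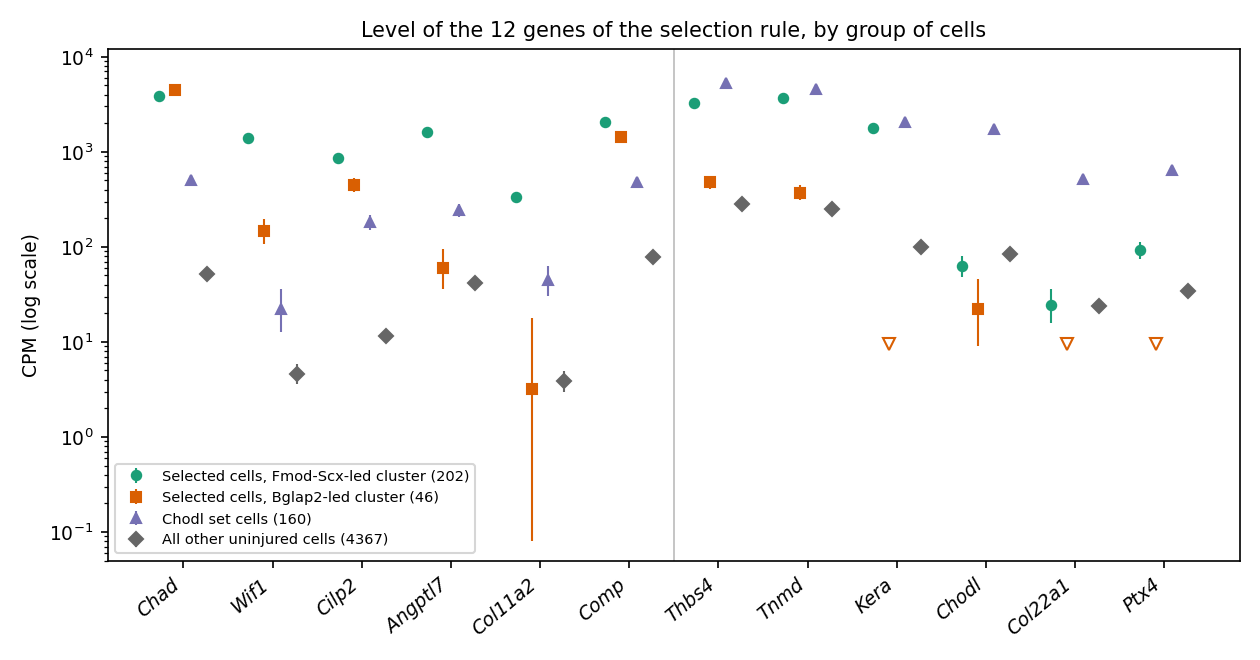
Level of the 12 genes of the rule (CPM, log axis) in the 202 Chad set cells of the Fmod-Scx-led cluster, the 46 of the Bglap2-led cluster, the 160 Chodl set cells and all other uninjured cells, with exact Poisson 95% intervals. Chad, Cilp2 and Comp were high in both clusters of selected cells, and open triangles, at the level of 3 UMIs, mark genes without a UMI in the Bglap2-led cells. These genes chose the cells, so the levels are a description.

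Outside the rule, the Bglap2-led cells had genes known from bone-forming cells. Bglap and Bglap2 encode osteocalcin, share nearly identical sequence and cannot be split with confidence in 3′ counts. Bglap was at 1077 CPM (965 to 1198) in the Bglap2-led cells and had no UMI in the 202 cells. Bglap2 was at 1268 CPM (1147 to 1399) against 1.97. These UMIs sat in few cells, since 20 of the 46 had a UMI of either gene. Ostn (osteocrin, a secreted peptide of bone and muscle) was at 586 CPM in 28.3% of these cells. Dlx5, a homeodomain regulator of osteoblasts, was at 213 CPM in 63.0% of them and 4.93 CPM in the 202 cells.

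Further genes were higher in the Bglap2-led cells than in the 202 cells. Itm2a, an integral membrane protein of cartilage and T cells, was found in all 46 at 2106 CPM (1949 to 2273) against 406. Col8a1, a network-forming collagen, was at 2769 CPM against 330, Aspn (asporin) at 1692 against 435 and Sfrp4, a secreted Wnt antagonist, at 1657 against 469. Of these genes, 3 were not particular to the Bglap2-led cells. The 33 main-cluster cells that were neither Chad set nor Chodl set cells had Itm2a at 1994, Sfrp4 at 2444 and Aspn at 1417 CPM. Their Col8a1 was at 272 CPM. Prrx1, the homeobox gene behind the Prx1 driver, was at 797 against 191 CPM. Wnt16 was at 185 CPM against 0.986 and S100b at 249 against 8.88. The clustering used these genes and the tendon genes outside the rule, so their levels describe the split, and the counting intervals do not cover that choice. Other bone cell genes were divided. Runx2, a regulator of osteoblasts, was at 86.0 CPM (56.7 to 125) in 43.5% of the Bglap2-led cells, against 7.89 CPM in the 202 cells. Alpl, tissue-nonspecific alkaline phosphatase, was at 31.9 CPM (15.3 to 58.6) against 4.93, and Sp7 at 12.7 CPM from 4 UMIs against none. Ibsp and Dmp1 had no UMI in any of the 46 cells. The other 21 cells of that cluster, which failed the rule, had Ibsp at 509 and Alpl at 382 CPM. They also had Bglap2 at 3372, Bglap at 1161 and Ostn at 1439 CPM. The genes that led the cluster were thus in part theirs.

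Most genes of the tendon list were higher in the 202 cells, but not all of them. Fmod was at 15581 CPM against 2431 in the Bglap2-led cells, Col1a1 at 26280 against 9285 and Scx at 72.0 against 9.56. Mkx was at 131 against 41.4 CPM, and Cilp at 768 against 60.5. The proteoglycan gene Bgn, at 2629 against 4974 CPM, was higher in the Bglap2-led cells instead, as was 1500015O10Rik, and Thbs3 was at 110 against 115 CPM. Genes shared with cartilage divided between the groups. Col2a1 was at 89.8 CPM in the 202 cells and had no UMI in the Bglap2-led cells, and Matn3 was at 144 against 3.19 CPM. In contrast, Acan had no UMI in the 202 cells and 6 in the Bglap2-led cells, Sox9 was at 35.5 against 76.5 CPM, and Matn4 was at 73.0 against 95.6 CPM with overlapping intervals.

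**Figure D3:**
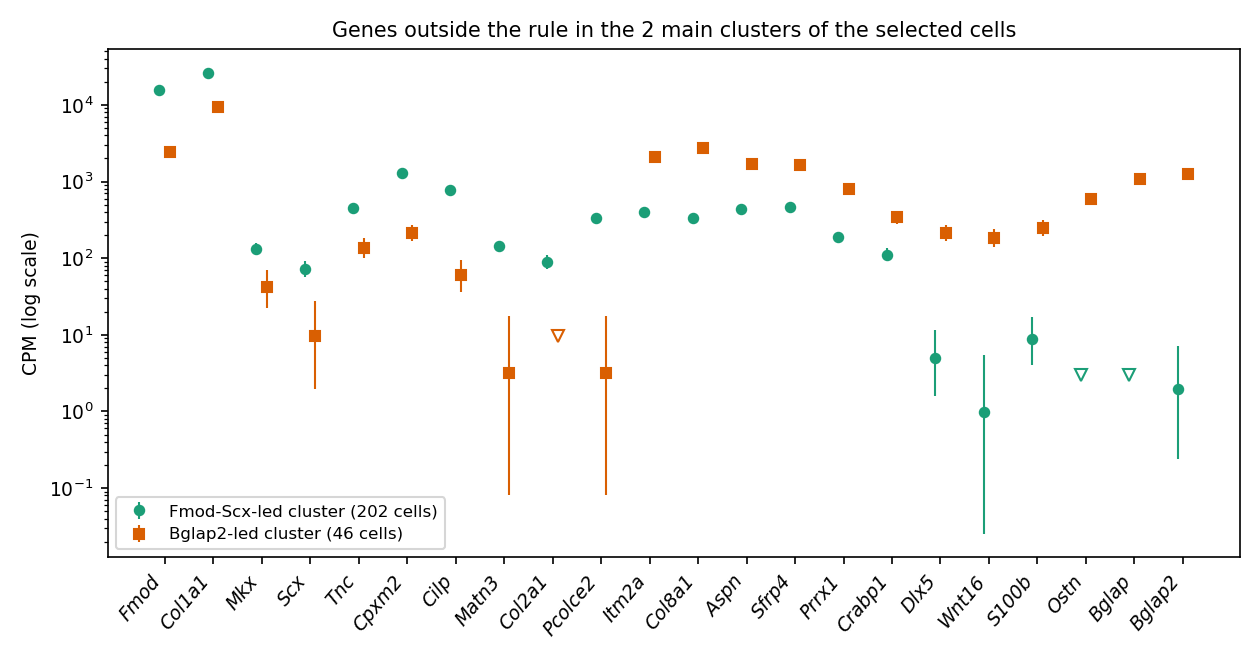
Level of 22 genes outside the rule (CPM, log axis) in the 202 Chad set cells of the Fmod-Scx-led cluster and the 46 of the Bglap2-led cluster, with exact Poisson 95% intervals. The tendon genes drawn on the left were higher in the first, Bglap, Bglap2, Ostn, Dlx5 and Wnt16 on the right had 0 to 5 UMIs in it, and open triangles, at the level of 3 UMIs, mark genes with none. Bgn, 1500015O10Rik and Thbs3 of the tendon list and Sox9, Acan and Matn4 of the cartilage list are not drawn. None of these was higher in the first.

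Compared with the other 4367 cells, 424 of 9072 genes outside the rule with at least 100 UMIs were at least 2-fold higher in Chad set cells (4.67%), and 1283 were at least 2-fold lower (14.1%). The median log2 ratio over all genes was -0.15. Higher genes made up 24.8% of these calls, and 35.2% when the groups were scaled by the median of gene ratios, which moved all log2 ratios up by 0.15. The cells were chosen by 12 genes of the same libraries, so these counts describe the cells and test nothing.

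The genes named next are the 20 with the highest ratios among those found in at least 20% of Chad set cells, without predicted genes and those known by a clone name. Fmod (chr1:134037254-134048277, plus strand), which binds collagen I and shapes its fibrils, was at 11706 CPM (11530 to 11884) against 320, a ratio of 36.5 (35.4 to 37.7). Per cell its median was 47 UMIs (0 to 248), and the median of the other cells was 0. It was found in 97.0% of Chad set cells, 18.5% of the other cells and 24.9% of mural cells. Mkx was at 103 against 7.001 CPM, a ratio of 14.8 (11.5 to 19.1), and was found in 37.0% of Chad set cells and 0.766% of mural cells. It was as high in Chodl set cells, at 115 CPM in 38.1% of them, and without these among the other cells its log2 ratio was 5.77 in place of 3.89. Tnc, tenascin C, a matrix glycoprotein of loaded tendon, was at 358 against 26.7 CPM. Without Chodl set cells among the other cells, the log2 ratios of Fmod, Tnc and Col11a1 were 7.26, 5.39 and 5.53, in place of 5.19, 3.74 and 3.64, so part of the level in the other cells was that of the Chodl set cells. Col1a1 was in all 265 cells, at 20904 against 2119 CPM (ratio 9.87, 9.71 to 10.0).

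Further collagen or collagen-like genes were among these 20. Col2a1, the main collagen of cartilage, was at 64.6 against 2.69 CPM, from 93 and 43 UMIs, and was found in 21.9% of Chad set cells and in no mural cell. Col11a1, the partner chain of Col11a2, was at 330 against 26.5 CPM. Col8a2 was at 217 against 9.001 and Col8a1 at 854 against 66.0 CPM. Cthrc1, a secreted protein with a collagen repeat, was at 335 against 21.2 CPM. These genes did not belong to the same cells: the Bglap2-led cells supplied 70.7% of the Col8a1 UMIs and 46.3% of the Col8a2 UMIs, but 10.7% of the Col11a1 UMIs and none of the Col2a1 UMIs. Without the Bglap2-led cells the log2 ratio of Col8a1 was 2.28, against 3.69 with them.

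Of the rest, Mfap4, a microfibril-associated glycoprotein, was at 3538 against 265 CPM and Cpxm2, a carboxypeptidase-like protein, at 971 against 71.9. Itgbl1, an integrin-beta-like protein, was at 738 against 66.3 CPM and Clec11a, a secreted lectin known as an osteogenic factor, at 539 against 53.6. Cpz, a carboxypeptidase with a Wnt-binding domain, had the highest ratio of the 20 (37.4, 24.7 to 58.3), at 70.2 against 1.88 CPM. With 101 UMIs in Chad set cells and 30 in the others, Cpz reached the minimum of UMIs only with the Chad set cells. The same held for Crabp1, Egfl6 and Cgref1, with 72, 75 and 74 UMIs in the other cells, and for Col2a1 and Matn4. The ranks of these genes are thus partly fixed by that minimum. Crabp1, which binds retinoic acid, was at 154 against 4.501 CPM, with 48.2% of its UMIs from the Bglap2-led cells. The remaining genes were Egfl6, Cgref1, Matn4, Fibin and Zfp185, with ratios of 9.93 to 29.2. Without Chodl set cells among the other cells, the log2 ratios of Zfp185, Col2a1 and Matn4 were 5.09, 5.70 and 4.94. With them these were 3.31, 4.59 and 4.13.

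**Figure D4:**
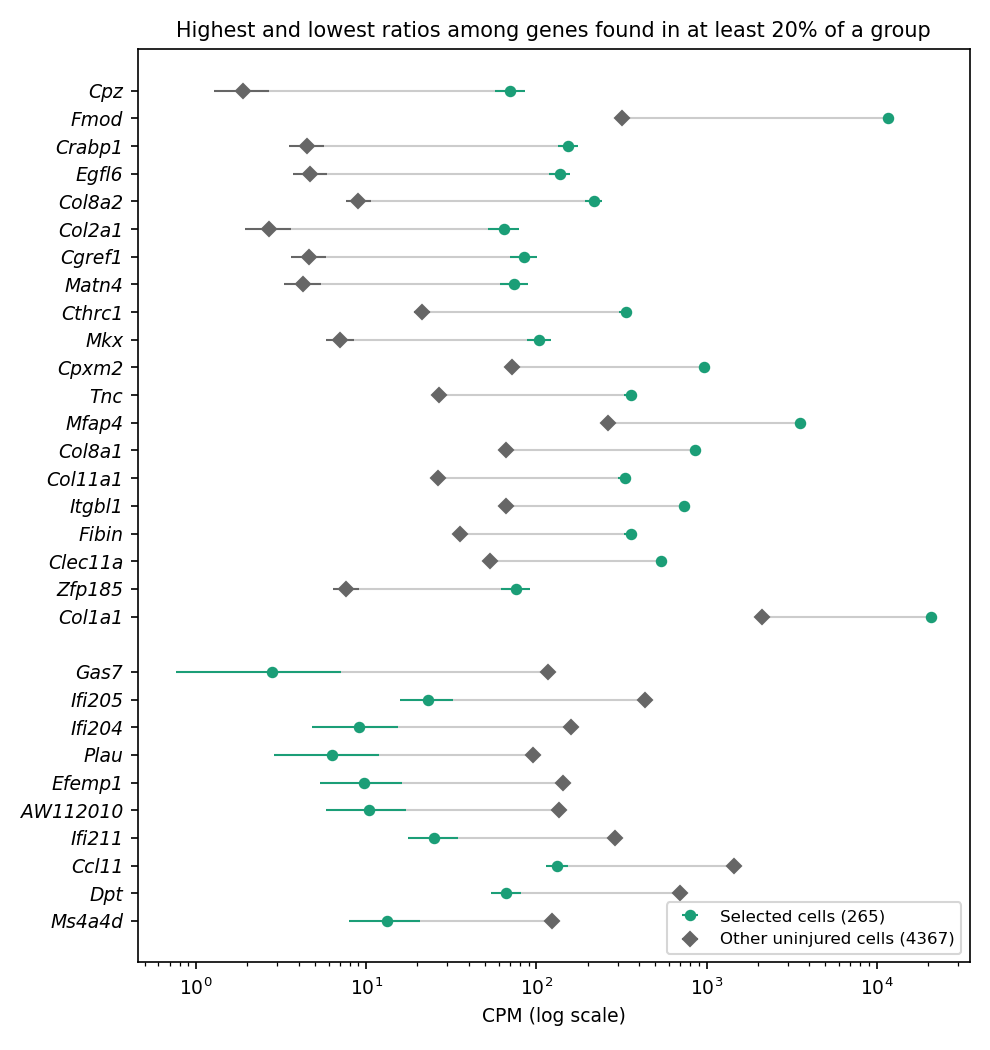
Level (CPM, log axis) of the 20 genes with the highest ratio between the 265 Chad set cells and the other 4367 uninjured cells among genes found in at least 20% of the former and not known by a predicted or clone name, and the 10 with the lowest among genes found in at least 20% of the latter, with exact Poisson 95% intervals. For each gene the groups lie at least 9.37-fold apart, with no overlap of the intervals. The genes were chosen for their extreme ratios, so this gap describes the choice and tests nothing. Cpz, Crabp1, Egfl6, Cgref1, Col2a1 and Matn4 reached the minimum of UMIs only with the Chad set cells, where they are high.

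The 10 lowest genes among those found in at least 20% of the other cells were lower by 9.37-fold or more. Gas7, a cytoskeletal adaptor, was at 2.78 CPM (4 UMIs) against 118. Ifi205, Ifi204 and Ifi211 are interferon-induced genes of 1 family with similar sequences, so their separate levels are uncertain. Ifi205 was at 22.9 against 436 CPM, Ifi204 at 9.03 against 160 and Ifi211 at 25.01 against 291. AW112010, another interferon-induced transcript, was at 10.4 against 136 CPM. Ccl11 (the chemokine eotaxin) was at 133 against 1461 CPM, Dpt (dermatopontin) at 66.7 against 700 and Efemp1 (fibulin 3) at 9.72 against 144. Plau, the urokinase gene, and Ms4a4d were lower by 15.3-fold and 9.37-fold.

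Progenitor genes were lower than in the other cells. Of the markers of fibro-adipogenic and mesenchymal progenitors, of which 76.4% of the other cells and 39.6% of Chad set cells had 2 or more, 4 of 5 genes were at least 2-fold lower in Chad set cells and 1 was higher. Ly6a (Sca-1) was at 169 against 1052 CPM, Cd34 at 122 against 740, Pdgfra at 33.3 against 169 and the chemokine Cxcl12 at 65.3 against 399. Prrx1 was the exception, at 324 against 117 CPM, with 53.6% of its UMIs from the Bglap2-led cells. Among 8 progenitor surface genes, 6 were lower and none higher, beside 14.1% lower and 4.67% higher among all genes, with a median log2 ratio of -2.47. Chodl set cells were low for them as well, with a summed level of 506 CPM against 797 in Chad set cells and 3773 in the other cells. Against Chodl set cells, 3 of the 8 were higher in Chad set cells and none lower, beside 8.33% and 7.68% of all genes in that comparison. Pi16 was at 150 against 1246 CPM and Cd55 at 21.5 against 151. Pdgfrb (126 against 94.8 CPM) and Dpp4 (34.0 against 33.3 CPM) differed by less than 2-fold.

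Tendon genes were higher with few exceptions. Of 12 genes on the list, 9 were at least 2-fold higher and none lower, beside 4.67% and 14.1% of all genes, with a median log2 ratio of 3.06 beside -0.15 for all genes, and a summed level of 62767 against 8313 CPM. Beside Fmod, Mkx, Tnc and Col1a1 these were Scx (52.8 against 6.69 CPM), Col1a2 (20940 against 2637), Thbs2 (504 against 57.2), Bgn (3033 against 1281) and 1500015O10Rik (3067 against 59.3). Egr1 and Egr2, stress-responsive factors that also act in tendon, and Thbs3 differed by less than 2-fold. Scx was found in 21.5% of the cells and in 76 UMIs in all, so at this depth most single cells could not be scored for it. Of 7 immediate early genes, which cell dissociation is known to induce, none differed by 2-fold (summed 15741 against 11642 CPM).

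Collagens and proteoglycans divided within their families, beside 4.67% of all genes higher and 14.1% lower. Of 9 fibrillar collagen genes, 4 were higher (Col1a1, Col1a2, Col2a1 and Col11a1) and 3 lower, with a median log2 ratio of -0.25. Col2a1, with 93 UMIs in Chad set cells and 43 in the others, reached the minimum of 100 UMIs only with the Chad set cells. Col3a1, the collagen of loose connective tissue, was at 1129 against 3295 CPM, Col5a3 at 78.5 against 384 and Col5a1 at 119 against 268. Of 12 other collagens 4 were higher and 5 lower. Col12a1 (526 against 63.8 CPM) and Col16a1 (271 against 42.8) joined Col8a1 and Col8a2, whereas the basement membrane chains Col4a1 (101 against 589) and Col4a2 (73.6 against 323) and Col15a1 (151 against 341) were lower. Of 10 small leucine-rich proteoglycans, 5 were higher and 2 lower (median log2 ratio 1.08). The higher ones were Fmod, Omd (142 against 18.9 CPM), Prelp (930 against 248), Bgn and Ogn (1532 against 653). Lum (lumican) was at 454 against 1503 CPM and Podn (podocan) at 25.01 against 68.8. Enzymes that modify collagen leaned the same way as type I collagen: 5 of 13 were higher and 1 lower, with Lox (lysyl oxidase, which crosslinks fibrils) at 468 against 76.6 CPM and P4ha2 at 22.2 against 86.1 CPM.

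**Figure D5:**
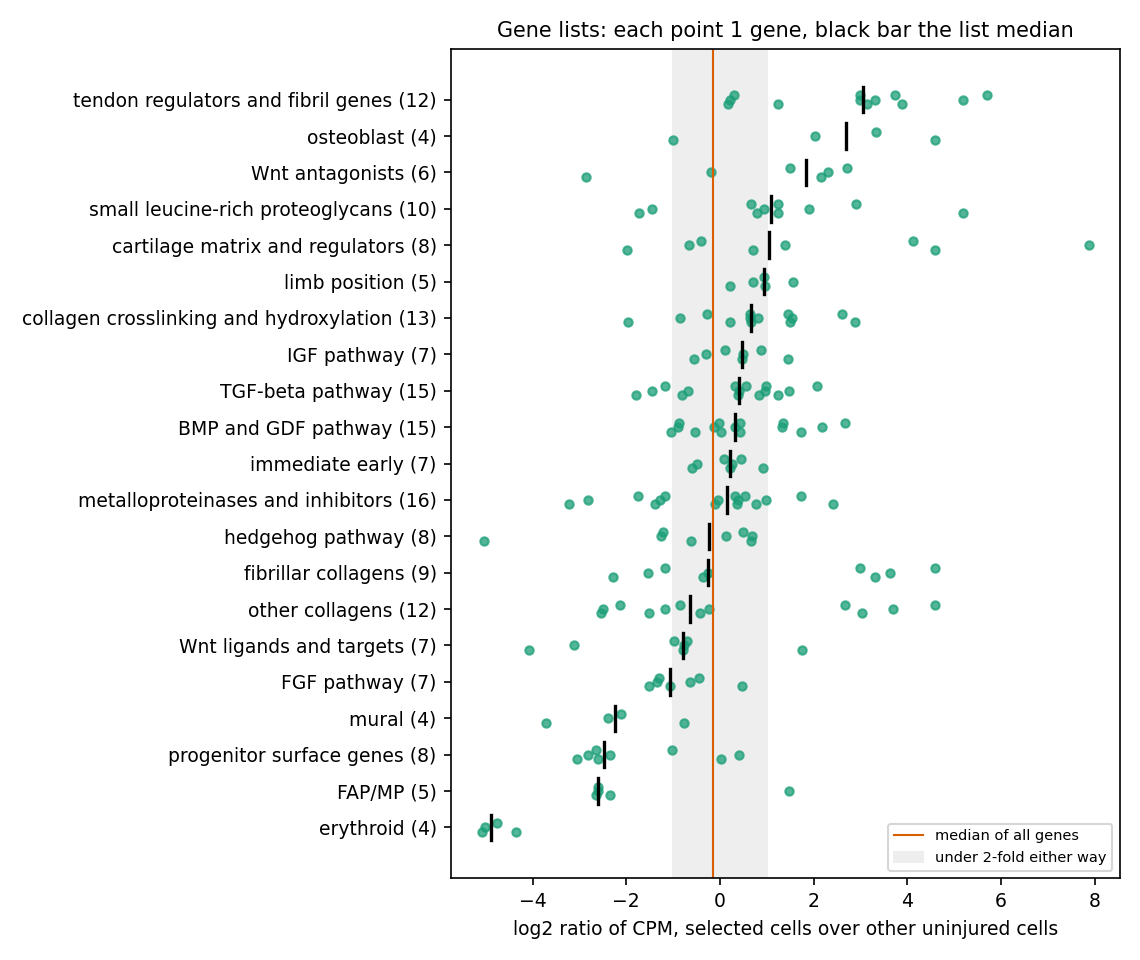
Log2 ratio of each tested gene between Chad set cells and the other uninjured cells, for lists with at least 4 tested genes (number in brackets), with the list median as a black bar, the median of all genes as an orange line and ratios under 2-fold shaded. Tendon genes lay on the right with a median of 3.06, and progenitor surface genes on the left with -2.47.

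The cartilage list was mixed. Of 8 tested genes 4 were higher and 1 lower, beside 4.67% and 14.1% of all genes. Matn3 (149 UMIs against 7), Col2a1 (93 against 43) and Matn4 (107 against 68) reached the minimum of 100 UMIs only with the Chad set cells, where they are high, so the count is partly fixed by that minimum and is no support. The summed level of the list was 1010 CPM in Chad set cells, 1145 in Chodl set cells and 405 in the other cells. Against Chodl set cells 2 of the 8 genes were higher and none lower, beside 8.33% and 7.68% of all genes. Matn3, a cartilage matrilin, had the widest ratio, 103 against 0.438 CPM (237, 112 to 598), and was found in 18.5% of Chad set cells. Col2a1, Matn4 and Cilp (579 against 221 CPM) were the others. The regulator Sox9 was at 43.8 against 68.8 CPM and Sox5 at 7.64 against 30.2 CPM, the latter at least 2-fold lower. Acan, the large proteoglycan of cartilage, was at 4.86 against 3.94 CPM, and Matn1, Col9a1, Col10a1, Cytl1 and Clec3a had no UMI in Chad set cells. Of the 3 chondrocyte markers tested, Matn3 and Col2a1 were higher and Sox9 lay within 2-fold. With 2 or more chondrocyte markers there were 37 of the 265 cells (14.0%), against 0.458% of the other cells, and after thinning 1.13% against 0.0916%.

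Levels of these genes varied with the number of Chad set genes a cell held, which is a number the rule used, so the values are a description. Median depths were 5283, 4286, 4387 and 6244.5 UMIs for cells with 3, 4, 5 and 6 of the genes. From cells with 3 to cells with 6 of them, Matn3 went from 2.86 CPM through 31.5 and 49.6 to 239 CPM, and Col2a1 from 11.5 through 34.96 and 63.7 to 117 CPM. Kera went from 209 to 2291 CPM, Fmod from 2841 to 17778 and Col1a1 from 7147 to 36891. Prg4 (lubricin, of gliding surfaces) stood at 272, 231, 262 and 691 CPM. In the reverse order, Aspn went from 1633 through 1129 and 418 to 90.0 CPM and Itm2a from 1524 to 188. The cells with 3 genes included 30 of the Bglap2-led cells, and those with 6 genes none. Not every tendon or cartilage gene was highest in cells with all 6: Cilp stood at 306, 759, 857 and 513 CPM, lower with 6 than with 5. Thbs4, a gene of the rule, stood at 650, 2195, 3375 and 3256 CPM. Its intervals overlapped for cells with 5 (3164 to 3596) and 6 genes (3103 to 3415).

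Secreted Wnt antagonists differed among themselves. Of 12 on the list, beside Wif1 of the rule, 6 were tested, of which 4 were higher and 1 lower, beside 4.67% and 14.1% of all genes. Dkk1, Frzb, Sost and Notum had no UMI in Chad set cells. Sfrp4 was at 745 against 166 CPM, Dkk3 at 101 against 15.3, Sfrp2 at 82.7 against 16.7 and Dkk2 at 77.1 against 27.3, whereas Sfrp1 was at 2.08 against 15.1. They were divided between the clusters. Dkk2 was at 97.6 CPM in the 202 cells and 9.56 in the Bglap2-led cells, Dkk3 at 47.3 and 296, and Sfrp2 at 83.8 and 95.6. Of 7 tested Wnt ligands and targets, 1 was higher (Nkd2, 34.7 against 10.3 CPM) and 2 lower, Wnt2 and Wnt10b. Wnt16, under the minimum of 100 UMIs, was at 42.4 against 1.06 CPM.

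The counts of the signalling lists stand beside 4.67% of all genes higher and 14.1% lower, so 1 called gene in a short list is not read as a result about that list. Of 15 BMP and GDF pathway genes 5 were higher and 1 lower. The extracellular BMP antagonist Chrdl1 (95.9 against 21.3 CPM) and the inhibitors Smad6 and Bambi were among the higher genes. Of 15 TGF-beta pathway genes 3 were higher, Ctgf (237 against 56.3 CPM), Cyr61 (1801 against 652) and Ltbp3 (115 against 48.3), and 3 were lower. The FGF list had 4 of 7 genes lower, Spry2 at 101 against 289 CPM among them, and none higher. The hedgehog list had 3 of 8 lower and none higher, with Hhip at 0.695 against 22.9 CPM from 1 UMI. In the IGF list 1 of 7 was higher, Igfbp3 (73.6 against 26.9 CPM), and none lower. Of 16 metalloproteinases and inhibitors 2 were higher and 6 lower. The higher ones were Mmp23 (172 against 51.8 CPM) and Mmp13 (60.4 against 11.3 CPM), whose 87 UMIs lay in 2.26% of the cells. Of 5 tested limb position genes, Hoxa10 was higher (86.1 against 29.1 CPM) and none was lower. None of 3 angiopoietin-like genes other than Angptl7 differed by 2-fold. Dividing cells were near absent, with 6 cell cycle genes summing to 4.86 CPM against 10.5.

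Markers of most other cell types were low or at 0, and their counts stand beside 14.1% of all genes lower and 4.67% higher. Of the mural genes, 3 of 4 tested were lower and none higher, their sum was 148 against 727 CPM, and Kcnj8 was at 0. All 3 tested perineurial genes were lower (sum 17.4 against 54.1 CPM). The endothelial list summed to 10.4 against 52.2 CPM, with Cdh5 and Emcn at 0, and 1 of its genes, Tek, was tested and lower. The haematopoietic list summed to 28.5 against 43.6 CPM with Ptprc, Itgam and Tyrobp at 0. Of its 3 tested genes Lyz2 was higher (17.4 against 8.44 CPM) and Cd74 lower. The erythroid list summed to 10.4 against 329 CPM, with 4 of 4 tested genes lower.

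Myogenic genes summed to 0.695 CPM with Pax7, Myod1, Myf5 and Cdh15 at 0, and myofibre genes to 11.1 against 27.8 CPM, with Tnnt3, the 1 tested gene, within 2-fold. The adipocyte list summed to 17.4 CPM, of which Retn gave 16.7 CPM from a single cell, and Plin1, Cidec and Lep were at 0. In the Schwann cell list S100b was higher (63.9 against 22.1 CPM), with 84.8% of its UMIs from the Bglap2-led cells, and Sox10 and Cdh19 were at 0. Of the synovial lining genes Prg4 was higher (414 against 114 CPM) and Has1 lower (108 against 872 CPM), and Clic5 was at 0.

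Of 4 tested osteoblast genes 3 were higher and 1 lower, beside 4.67% and 14.1% of all genes. Bglap and Bglap2 cannot be told apart with confidence, so they stand for 1 signal among the 3, and Ibsp and Dmp1 were at 0. The list summed to 557 against 74.2 CPM. Bglap2 was the most abundant (280 against 27.7 CPM), followed by Bglap (237 against 9.88 CPM), and Runx2 was at 25.7 against 6.31 CPM. Alpl was at 11.8 against 23.6 CPM. The Bglap2-led cells supplied 99.1% of the Bglap, 98.8% of the Bglap2 and 73.0% of the Runx2 UMIs.

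Against the 160 Chodl set cells, 756 of the 9072 genes were at least 2-fold higher in Chad set cells (8.33%) and 697 at least 2-fold lower (7.68%), with a median log2 ratio of -0.06. The balance was not stable: 638 were higher and 1029 lower with 4 of the 6 genes required, 943 and 1308 after thinning to 1000 UMIs, and 631 and 1176 for the 202 cells alone. Both groups were chosen by the same 12 genes. Sfrp4 was at 745 against 18.03 CPM (ratio 41.3, 24.1 to 77.8), and Pcolce2, an enhancer of procollagen processing, at 249 against 15.3 CPM (16.3, 9.03 to 33.0). Cpz had 101 UMIs against 1 (ratio 50.6, interval 8.88 to 2018). Dio2, which activates thyroid hormone, was at 82.0 against 2.77 CPM and the proteoglycan Sdc1 at 65.3 against 4.16. Sod3 and Wfdc1 were higher by 10.9-fold and 10.2-fold. In mural cells they were at 116 and 141 CPM, above the 91.0 and 128 CPM of Chad set cells. After thinning to 1000 UMIs no Chodl set cell had a UMI of Dio2, Sdc1 or Sod3. With that group set at 3 UMIs their log2 ratios were 1.94, 1.69 and 2.01. These are lower limits and cannot show a fall from 4.89, 3.97 and 3.45. The log2 ratio of Cpz was 3.59 after thinning, in place of 5.66, with a Cpz UMI left in 0.625% of Chodl set cells. Pcolce2 came almost wholly from the 202 cells, at 334 CPM against 3.19 in the Bglap2-led cells, which in contrast supplied 55.9% of the Dio2 and 57.4% of the Sdc1 UMIs.

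The genes that were lower than in Chodl set cells included Postn (periostin, a matrix protein of tendon and fibrous tissue), at 79.9 against 1549 CPM, 19.4-fold lower (15.99 to 23.7). The 202 cells held 19.1% of its UMIs in Chad set cells, at 21.7 CPM, and the Bglap2-led cells 62.6%, at 229 CPM. With the 202 cells alone the log2 ratio was -6.16 in place of -4.28. Postn was found in 12.8% of Chad set cells and 66.2% of Chodl set cells, and in 4.21% of mural cells. Fam159b, Scg3, Pla2g7, Etv4, Bdnf, Kcnk2 and Prph were lower by 16.2-fold to 81.8-fold, each with 3 to 9 UMIs in the Chad set cells. Scg3, Bdnf, Kcnk2 and Prph are best known from neurons and secretory cells. Within the tendon list 4 of 12 genes were higher than in Chodl set cells and 2 lower, beside 8.33% and 7.68% of all genes, Fmod at 11706 against 5484 CPM among the higher and Scx at 52.8 against 132 CPM among the lower. The Wnt antagonist list had 4 of 6 genes higher and none lower, and the IGF list 5 of 7 higher.

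To compare the libraries at equal depth, every retained cell of each was thinned to 1000 UMIs and the rule applied again. At day 0, 170 of 4632 cells met it (3.67%, 3.15 to 4.25%), of which 165 were among the 265. At day 3 after fracture 12 of 5589 cells did (0.215%, 0.111 to 0.375%). At day 5 after polytrauma 2 of 11941 did (0.0167%, 0.00203 to 0.0605%). The share was thus lower in these injured libraries than at day 0 by more than counting error, but each is 1 library, and the mouse, the library and the injury cannot be told apart. A lower share can also arise from more cells of other kinds among those sorted, and this was not tested.

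In the library labelled day 5 after fracture 0 of 6201 cells met the rule, and the limit that 3 cells would give is 0.0484%. In the library labelled day 3 after polytrauma 6 of 1468 did (0.409%, 0.150 to 0.887%). Of these 6 cells 5 had a Col2a1 UMI, against 11 of the 170 cells at day 0, but the level of Col2a1 over all cells was 1525 CPM in that library and 7.80 CPM at day 0. Without thinning the counts were 265, 50, 19, 150 and 59 cells in the order day 0, day 3 and day 5 after fracture, and day 3 and day 5 after polytrauma as labelled, with median depths of 3640, 17963, 15688, 34949 and 15753 UMIs.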

How the data were processed

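The deposited UMI counts per gene and cell barcode (10x matrices, Cell Ranger 3.1.0 per the file headers, mm10 and Seurat 3.1.2 per the labels) were made by the authors and used without further correction. Retained cells had 350 to 8000 genes, under 20% mitochondrial UMIs and at least 1000 UMIs. The rule, the gene lists and the comparisons were chosen with earlier results of these data known. Levels are summed UMIs scaled to a total of 1000000, with exact intervals, and a group at 0 was set to 3 UMIs in a ratio. Genes with at least 100 UMIs over the retained day 0 cells were compared, without the 12 genes of the rule. Named genes were the 20 highest found in at least 20% of Chad set cells, the 10 lowest found in at least 20% of the other cells, the 8 highest and the 8 lowest against Chodl set cells, and the members of 34 lists. Predicted, mitochondrial and ribosomal genes were counted but not named, apart from list members. Some genes that the rule names are not reported here. Clustering used scanpy 1.11.5 (2000 variable genes without the 12, 20 principal components, 15 neighbours, Leiden at resolution 0.5). Scrublet called 3 of 5367 cells doublets, too few for the caller to have worked, and doublets were not removed. Barcodes found in another library numbered 6 among the Chad set cells and 86 among the others. Gene positions are those of GENCODE for GRCm38, the build also named mm10. Nothing says that cells of the 2 pooled mice can be told apart. The scripts were tested on simulated data.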

Additional observations from a re-analysis of the deposited data

How the results depend on the processing

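No paired analysis was possible because each condition has 1 library, and for the same reason no replicate could be left out. The share of Chad set cells, 5.72%, was 7.25% with 2 of the 6 genes required, 4.32% with 4, 6.61% without the condition on the second set, 4.99% with no UMI minimum, 6.46% from 2000 UMIs and 3.67% after thinning to 1000 UMIs. It was 4.10% without Chad in the rule, 4.45% without Cilp2 and 4.17% without Comp, and 5.18 to 5.72% in the other 5 settings tried. With genes from 20 UMIs, 928 genes were higher than in the other cells, and 1181 higher and 1185 lower than in Chodl set cells. With genes from 500 UMIs the counts were 160 higher and 505 lower, and 195 higher and 156 lower against Chodl set cells; both limits change how many genes are compared. With cells thinned to 1000 UMIs, 689 genes were higher than in the other cells and 1308 lower than in Chodl set cells. An alternative chosen after seeing the clusters kept only the 202 cells of the main cluster, with 1176 genes lower than in Chodl set cells. It gave 424 higher and 1739 lower than in the other cells. A further alternative, without the Bglap2-led cells, was also chosen after seeing the clusters. That one gave 387 higher and 1467 lower than in the other cells. With 10 principal components 93.2% of the cells shared a cluster of 450 cells, the Bglap2-led cells included. At resolutions 0.3 and 1 and with 1000 variable genes, 44 to 46 of the 46 Bglap2-led cells shared a cluster apart from the main one. That cluster had 66 or 67 cells, so it also held cells that failed the rule. At resolution 1 the main cluster held 195 Chad set cells and 27 Chodl set cells. None of the 46 single-gene ratios changed direction in these settings, of which the UMI limits cannot move a ratio and the Scrublet calls removed 3 cells. The value lay outside the counting interval of the main ratio for 17 of them after thinning and 16 in the main cluster alone. The same held for 16 of those that could be compared without Chodl set cells among the other cells. It held for 13 without the Bglap2-led cells, 12 with 4 of the 6 genes required and 11 as means of per-cell CPM. It held for 7 under the other scaling and 1 without shared barcodes. That interval leaves out the wider counting error of the thinned values. Of the 17, Gas7, Scg3, Dio2, Sdc1 and Sod3 rest on a group without a UMI, set at 3, so their thinned ratios are limits and not moves. Sparse genes such as Scx are limited by depth, and 41 further cells met the first condition of the rule alone.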
